A study of Mus musculus with 12 samples.

Results

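The transcripts of the mitochondrial respiratory chain and ATP synthase were examined in mouse brain after stroke surgery. Members were taken by gene symbol, as every Ensembl gene whose symbol starts with Nduf, Sdha to Sdhd, Uqcr, Cox4 to Cox8, Atp5, mt-Nd, mt-Co, mt-Cytb or mt-Atp, without pseudogenes marked -ps. This gave 111 of the 31208 genes in the count table, 98 encoded in the nucleus and 13 in the mitochondrial genome. The nuclear members comprised 86 subunits and 12 assembly factors, which the prefixes also take in (8 Ndufaf and 4 Sdhaf genes). By complex, assigned from the symbol's prefix, there were 46 nuclear and 7 mitochondrial members for complex I, 8 nuclear members for complex II, 8 and 1 for complex III, 18 and 3 for complex IV, and 18 and 2 for complex V.

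Brain RNA came from C57BL/6 mice at 8 weeks of age, in 3 groups of 4 libraries. Sham mice formed the first group, and mice at 6 h of ischemia after preconditioning with vehicle (ischemia vehicle) or with lactate (ischemia lactate) formed the others. Ischemia was made by blocking the left middle cerebral artery with a filament, and saline or lactate, named as D-lactate in the methods, was injected into the cerebral ventricle on the day before surgery. Whether sham mice were injected, and which part of the brain was taken, is not given in the sources used here, and P values measure the spread between libraries, each taken here as 1 mouse. The libraries were full-length cDNA sequenced as nanopore reads, with 6815920 to 10677224 gene counts per library.

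The respiratory chain passes electrons from NADH (complex I) and succinate (complex II) through ubiquinone and complex III to cytochrome c and on to oxygen at complex IV, and the proton gradient built on the way drives ATP synthase (complex V). The core membrane subunits of complexes I, III, IV and V are encoded in the mitochondrial genome and transcribed inside the organelle as long polycistronic RNAs, which are cut at the tRNAs. All other subunits, and the whole of complex II, are nuclear and imported, so that each of the mixed complexes needs products of both genomes. Neurons depend on this chain for most of their ATP, and occlusion of an artery withholds its final substrate, oxygen.

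The nuclear members together varied little between mice, whereas the mitochondrial members varied widely between mice within the sham and ischemia vehicle groups. The nuclear members summed to 4.06%, 4.58%, 4.13% and 4.31% of all gene counts in sham mice 1 to 4. The share was 3.51%, 4.12%, 4.03% and 3.96% in ischemia vehicle mice and 4.09%, 3.71%, 3.97% and 4.00% in ischemia lactate mice. The means were 4.27 ± 0.233% (SD, n = 4), 3.90 ± 0.269% and 3.94 ± 0.165%, and the groups overlapped. In a bulk sample, fewer cells of a type and less RNA per cell cannot be told apart.

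The 13 mitochondrial members summed to 1.40%, 1.29%, 1.74% and 2.10% of gene counts in sham mice 1 to 4. Ischemia vehicle mice gave 1.99%, 1.98%, 0.909% and 2.06%, and ischemia lactate mice 1.23%, 1.24%, 1.32% and 1.13%. Vehicle mouse 3 thus lay below every other mouse, while the other 3 vehicle mice lay among or near the highest sham mice. The lactate mice lay close together, level with or below sham mice 1 and 2, with a mean of 1.23 ± 0.0763% (SD, n = 4) against 1.63 ± 0.368% in sham and 1.73 ± 0.551% in vehicle mice. The ratio of mitochondrial to nuclear counts was 0.384 ± 0.0900 in sham, 0.448 ± 0.152 in vehicle and 0.312 ± 0.0252 in lactate mice (SD, n = 4 each). On the log2 scale the mean ratio was 0.17 higher in vehicle than in sham mice, 0.27 lower in lactate than in sham mice and 0.44 lower in lactate than in vehicle mice. Without vehicle mouse 3 the first was 0.47 and the last -0.74, and the first fell to 0.03 without vehicle mouse 1 or sham mouse 2.

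**Figure D1:**
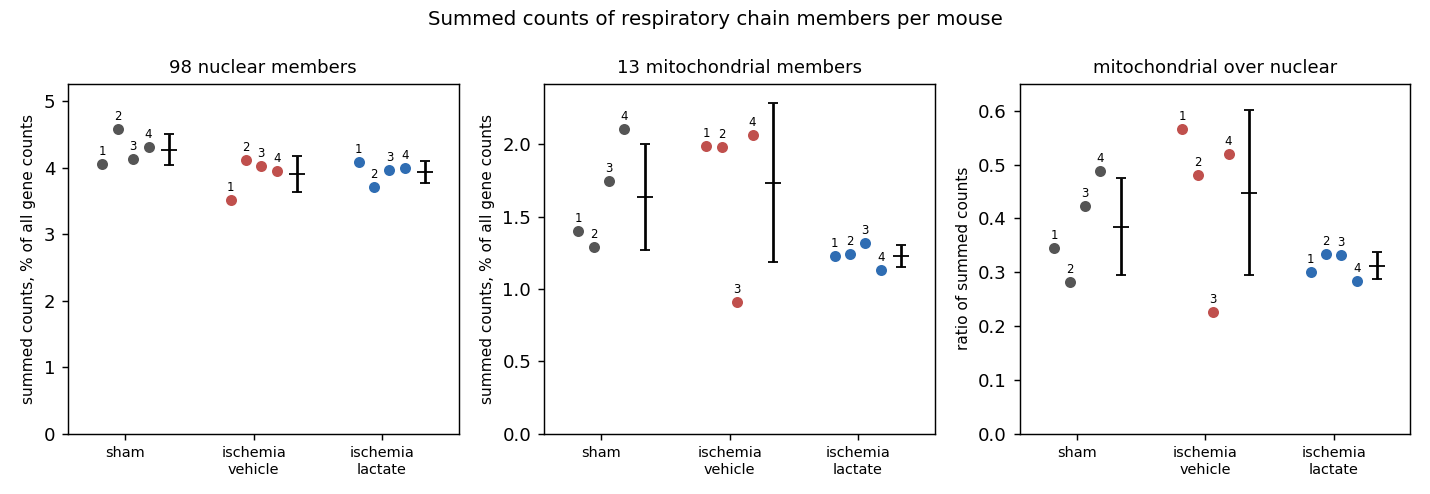
Summed counts of the 98 nuclear members and of the 13 mitochondrial members as a percentage of all gene counts, and the ratio of the mitochondrial to the nuclear sum, for each mouse (points numbered by mouse; horizontal marks with bars, mean and SD of 4 mice). The nuclear sums stay between 3.51% and 4.58%, while vehicle mouse 3, at 0.909%, lies apart from the other vehicle mice in the mitochondrial sum.

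Spread between mice followed the same division. The median coefficient of variation over 95 nuclear members was 7.21% in sham, 10.3% in vehicle and 7.07% in lactate mice. Over the 13 mitochondrial members it was 16.3%, 38.9% and 10.9%. Over 3052 genes of all kinds with a mean of at least 50 CPM (the deposited gene counts scaled to the library's total) it was 10.2%, 15.6% and 9.68%, so that the 81 nuclear members at that level, at 6.18%, 9.59% and 6.45%, had lower medians in each group. Members share libraries, and these values are given as a description.

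The comparison of ischemia vehicle with sham mice asks how these transcripts stood at 6 h of ischemia after a saline injection. No member was called at a Benjamini-Hochberg adjusted P under 0.05 by the edgeR quasi-likelihood test, where 1.47% of the 17019 genes tested were called. At an unadjusted P under 0.05, 2 nuclear members were higher and 6 lower, against 8.58% and 5.21% of all genes, and none of the mitochondrial members reached it. DESeq2, the edgeR exact test and limma voom called 0 members as well, where over all genes they called 399, 416 and 341 higher and 77, 78 and 54 lower. The median log2 fold change was -0.08 over the 94 nuclear members tested, 0.09 over the 13 mitochondrial members and 0.00 over all genes, and 66 nuclear members (70.2%) had a negative estimate against 49.6% of all genes. Leaving out 1 mouse moved the mitochondrial median between 0.01 (without vehicle mouse 2) and 0.33 (without vehicle mouse 3), and the nuclear median between -0.12 (without sham mouse 1) and -0.03 (without sham mouse 2). With looser limits (unadjusted P under 0.05 and a fold of at least 1.5), 1 member was upregulated, where 6.5% of all genes were upregulated, and 0 downregulated, against 3.01%. It was Ndufaf6, an assembly factor of complex I.

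Ndufaf6 stood at 11.1, 9.48, 9.51 and 8.02 CPM in sham mice and at 14.5, 16.2, 20.9 and 9.68 CPM in vehicle mice. Vehicle mouse 4 lay within the sham range. The log2 fold change was 0.72 ± 0.23 (SE; edgeR adjusted P = 0.186), and lactate mice ranged from 3.92 to 17.3 CPM. Ndufaf2, another assembly factor of complex I, was at 103 to 121 CPM in sham mice, at 71.1 to 92.7 CPM in vehicle mice and at 92.4 to 114 CPM in lactate mice. The vehicle mice did not overlap the sham mice, with a log2 difference of -0.39 ± 0.13 (edgeR adjusted P = 0.219). Ndufb3, an accessory subunit of complex I, was at 231 to 301 CPM in sham mice and 189 to 211 CPM in vehicle mice (log2 difference -0.34 ± 0.13, edgeR adjusted P = 0.272). Ndufb8, a further accessory subunit, had the opposite sign. Its values were 252.8, 250.8, 269.7 and 251.6 CPM in sham mice and 287.6, 298.0, 302.0 and 284.6 CPM in vehicle mice, a log2 difference of 0.23 ± 0.10 (edgeR adjusted P = 0.353). Ndufv1, which holds the NADH site of complex I, was at 290.5 to 407 CPM in sham and 385 to 431 CPM in vehicle mice (log2 0.20 ± 0.12, edgeR adjusted P = 0.484), and Atp5mpl, a small subunit of ATP synthase, at 851 to 1144 CPM and 725 to 840.5 CPM (log2 -0.30 ± 0.12, edgeR adjusted P = 0.307). Of the 94 nuclear members, 16 had all vehicle mice below all sham mice and 2 had them above, against 4.89% and 4.14% of all genes.

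Lactate against sham mice asks the same after a lactate injection. Here 5 of the 108 members tested fell and 0 rose at an adjusted P under 0.05 (edgeR), while 3.54% of the 17262 genes tested fell and 8.76% rose. At an unadjusted P under 0.05, 13 nuclear and 4 mitochondrial members were lower, and 2 nuclear members were higher, against 11.4% and 15.6% of all genes. By the looser limits 1 nuclear and 3 mitochondrial members were downregulated and 0 upregulated, where 5.65% and 11.9% of all genes were. The 5 members called were mt-Nd4, Cox6b2, Ndufaf3, Sdhaf4 and Cox7b, and their share was thus near that of all genes that fell. The median log2 fold change was -0.08 over 95 nuclear members, -0.10 over the 13 mitochondrial members and -0.03 over all genes. Leaving out 1 mouse moved the mitochondrial median between -0.24 (without sham mouse 1) and -0.00474 (without sham mouse 4), and the nuclear median between -0.11 (without sham mouse 1) and -0.04 (without lactate mouse 2). Of the nuclear members, 24 had all lactate mice below all sham mice, and none had them above, against 8.74% and 10.4% of all genes.

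mt-Nd4 encodes a membrane subunit of the proton-pumping arm of complex I (GRCm38 chrM:10167-11544, plus strand). It was at 4583, 3301, 5808 and 6837 CPM in sham mice, at 5925, 6309, 2010 and 6555 CPM in vehicle mice and at 3227, 3176, 3809 and 2425 CPM in lactate mice. Sham mouse 2 lay within the lactate range. The fold change against sham was 1.59-fold lower (log2 -0.67 ± 0.18 SE, edgeR adjusted P = 0.0315).

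Cox7b, a small accessory subunit of complex IV (GRCm38 chrX:106015700-106022450, plus strand), was at 561, 593, 521 and 594 CPM in sham mice and at 461, 411, 428 and 490 CPM in lactate mice. No lactate mouse reached the lowest sham mouse, and the vehicle mice, at 436 to 524 CPM, overlapped both groups. The fold change was 1.24-fold lower (log2 -0.31 ± 0.09 SE, edgeR adjusted P = 0.0402). Cox6b2, the testis isoform of a subunit facing the intermembrane space, was scarce in brain, at 9.23, 4.91, 7.61 and 7.77 CPM in sham mice and 3.11, 2.75, 4.48 and 4.87 CPM in lactate mice. The groups nearly touched, between sham mouse 2 and lactate mouse 4. The fold change was 1.88-fold lower (log2 -0.91 ± 0.25 SE, edgeR adjusted P = 0.0317).

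The other calls were for assembly factors. Ndufaf3, of complex I, was at 90.5, 91.0, 90.9 and 105.7 CPM in sham mice, at 66.7 to 83.1 CPM in vehicle mice and at 74.0, 65.9, 66.7 and 76.6 CPM in lactate mice. Sdhaf4, which helps to assemble the flavin subunit of complex II, was at 70.4, 74.6, 67.4 and 79.6 CPM in sham mice, at 40.7 to 64.8 CPM in vehicle mice and at 58.2, 43.7, 56.0 and 55.8 CPM in lactate mice. In both genes all ischemic mice of either group lay below all sham mice. The log2 differences of lactate from sham mice were -0.39 ± 0.11 for Ndufaf3 (edgeR adjusted P = 0.0326) and -0.42 ± 0.12 for Sdhaf4 (edgeR adjusted P = 0.0394). Of the members with positive estimates, Sdhaf2, which adds flavin to complex II, was at 32.9 to 40.5 CPM in sham and 40 to 51.1 CPM in lactate mice (log2 0.30 ± 0.12, edgeR adjusted P = 0.138), and Cox7a1, a muscle isoform of complex IV, at 8.44 to 14.6 CPM and 11.2 to 16.6 CPM (log2 0.40 ± 0.22, edgeR adjusted P = 0.273).

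Each of these 5 calls was lost in most of the fits that left out 1 mouse. Over all genes the number lower fell as well, from 611 to between 290 (without sham mouse 3) and 530 (without lactate mouse 4). Leaving out mice in turn, the mt-Nd4 call was lost without sham mouse 3 or 4 or lactate mouse 1, 2 or 4, the Cox6b2 call without sham mouse 1, 3 or 4 or lactate mouse 1 or 2, and the Ndufaf3 call without sham mouse 3 or 4 or lactate mouse 1, 2 or 3. The Cox7b call was kept in 2 of 8 such fits, without sham mouse 3 or lactate mouse 4, and the Sdhaf4 call in 1 of 8, without lactate mouse 1. Each log2 difference stayed negative throughout, between -0.83 and -0.49 for mt-Nd4 over all alternatives, and between -0.36 and -0.27 for Cox7b. The all-12-mouse fit, in which the spread of vehicle mice also counts, called 0 members, with adjusted P = 0.177 for mt-Nd4 and 0.0637 for Cox7b (edgeR). Over all genes that fit called 324 lower, against 611 in the main fit.

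**Figure D2:**
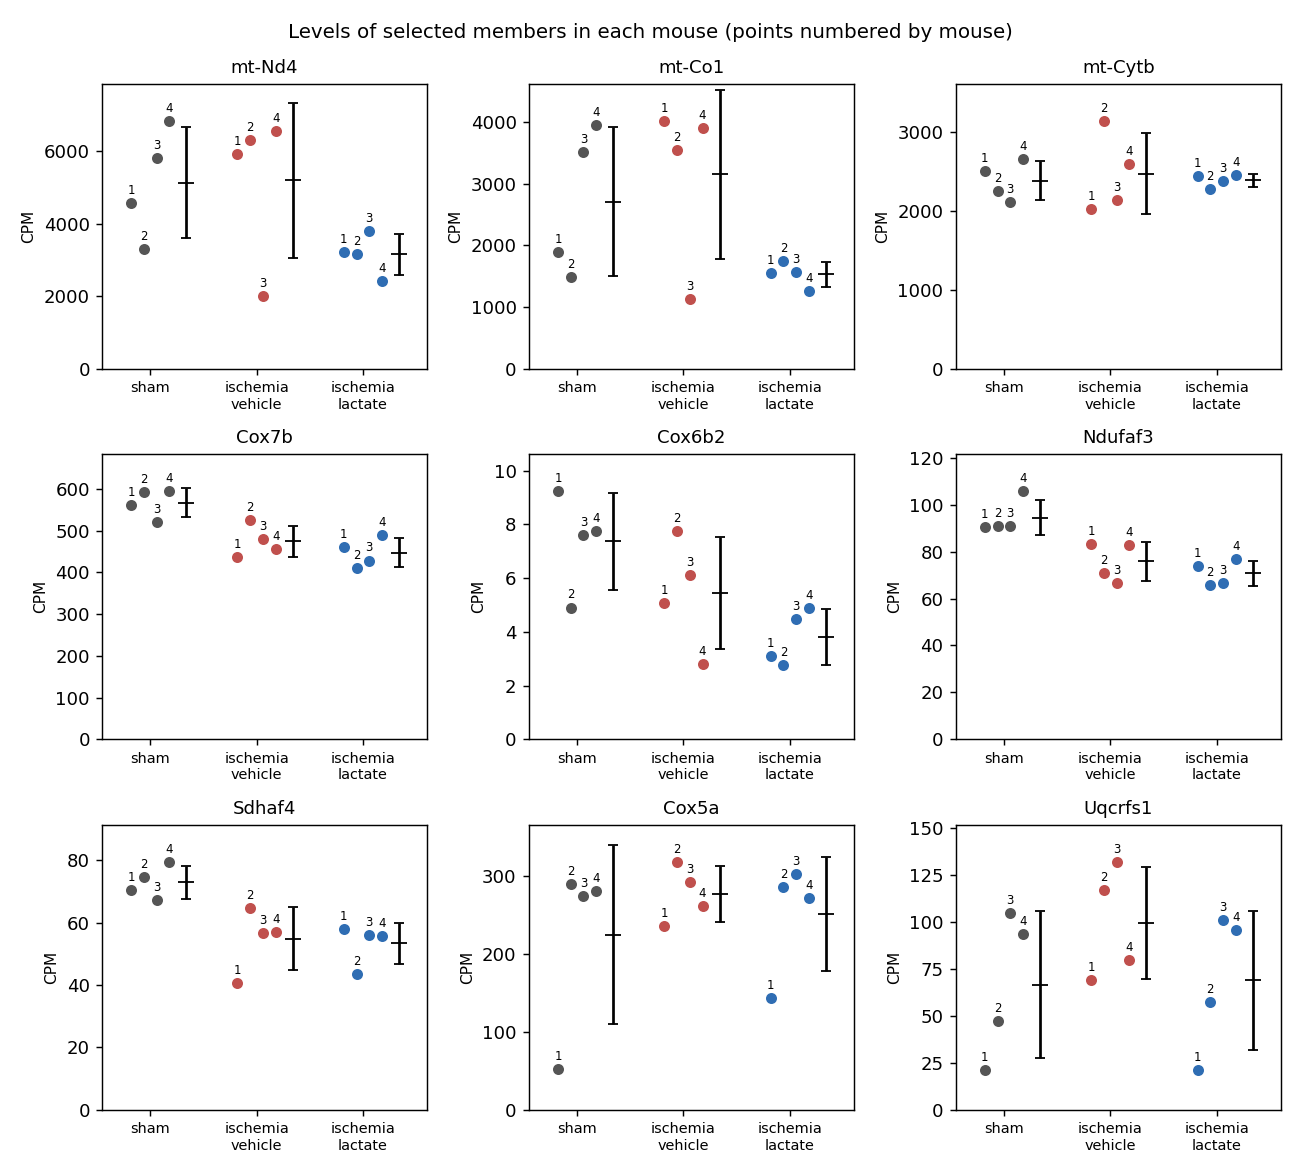
CPM of 9 members in each mouse (points numbered by mouse; marks with bars, mean and SD of 4 mice; each axis starts at 0). Ndufaf3 and Sdhaf4 are lower in every ischemic mouse than in every sham mouse, while in Cox5a and Uqcrfs1 mouse 1 is the lowest of each of the 3 groups.

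Within the mitochondrial genome, the transcripts did not move as 1 block. mt-Co1, the catalytic subunit of complex IV (GRCm38 chrM:5328-6872, plus strand), was at 1889, 1480, 3518 and 3948 CPM in sham mice, at 4018, 3541, 1128 and 3906 CPM in vehicle mice and at 1552, 1740, 1573 and 1257 CPM in lactate mice. Sham mice 1 and 2 and vehicle mouse 3 thus lay in or near the lactate range and the other 5 mice of those groups far above it. The log2 difference of lactate from sham mice was -0.79 ± 0.25 and was not called (edgeR adjusted P = 0.0516), though it was in 7 of 21 alternatives. mt-Nd1, a complex I subunit at the quinone site, was at 625, 869, 1207 and 1588 CPM in sham mice, at 1233, 1467, 495 and 1786 CPM in vehicle mice and at 672, 714, 705 and 701 CPM in lactate mice. Its 4 lactate values differed by a coefficient of variation of 2.58%, against 39.0% in sham and 44.1% in vehicle mice. mt-Co2, which receives electrons from cytochrome c, was at 1190, 1092, 1245 and 1551 CPM in sham mice and at 977, 1055, 1065 and 821 CPM in lactate mice without overlap (log2 -0.34 ± 0.12, edgeR adjusted P = 0.0734), while vehicle mice spanned 660 to 2574 CPM.

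mt-Cytb, the only complex III subunit made in mitochondria, showed far less spread. It was at 2505, 2255, 2116 and 2668 CPM in sham mice, 2023, 3147, 2136 and 2595 CPM in vehicle mice and 2449, 2280, 2378 and 2455 CPM in lactate mice, and vehicle mouse 3 was among the lower values but not apart. mt-Atp6, the proton channel subunit of ATP synthase, was at 564 to 871 CPM in sham, 662 to 879 CPM in vehicle and 655 to 756 CPM in lactate mice. mt-Co3 was at 362 to 468, 436 to 644 and 398 to 513 CPM, and mt-Nd2 at 688 to 934, 528 to 871 and 694 to 864 CPM. Against sham, the log2 differences of lactate mice in these 4 genes lay between -0.06 (mt-Atp6) and 0.18 (mt-Co3), and those of vehicle mice between -0.22 (mt-Nd2) and 0.31 (mt-Co3), none called. Measured against mt-Cytb in the same library, the mt-Co1 count was 0.754, 0.656, 1.66 and 1.48 times as large in sham mice, 1.99, 1.13, 0.528 and 1.51 times in vehicle mice and 0.634, 0.763, 0.661 and 0.512 times in lactate mice. This ratio does not use the library total, and what sets it was not tested.

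The remaining complex I transcripts were between these. mt-Nd5 was at 538 to 754 CPM in sham mice, at 687, 674, 254 and 816 CPM in vehicle mice and at 426 to 608 CPM in lactate mice. mt-Nd6, the only protein gene on the other strand (GRCm38 chrM:13552-14070, minus strand), was at 432, 415, 422 and 531 CPM in sham mice, 446, 474, 210 and 621 CPM in vehicle mice and 373 to 472 CPM in lactate mice. Both were lowest of all 12 mice in vehicle mouse 3. It was the lowest mouse in 8 of the 13 mitochondrial members, against 4 of 95 nuclear members. Among the nuclear members other mice stood out, since vehicle mouse 1 was the lowest of all 12 in 40 of 95, lactate mouse 2 in 20, and sham mouse 2 was the highest in 38. The tail of mt-Nd6 overlaps the end of mt-Nd5, and whether counting used strand is not given in the sources used here.

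Of the shortest transcripts, mt-Nd3 was at 48.9 to 68.2 CPM in sham, 47.7 to 100.2 CPM in vehicle and 57.4 to 78.2 CPM in lactate mice. mt-Nd4l and mt-Nd4 lie on 1 bicistronic RNA, and mt-Atp8 and mt-Atp6 on another, so reads can be shared between them. There were 3.59 to 3.79 mt-Nd4l counts per 100 mt-Nd4 counts in sham mice, 3.26 to 4.72 in vehicle mice and 4.28 to 4.55 in lactate mice. The mt-Atp8 count was 60.3 to 69.4 per 100 mt-Atp6 counts in sham, 48.6 to 72.7 in vehicle and 60.1 to 67.8 in lactate mice. mt-Nd4l itself (119 to 256 CPM in sham, 86.0 to 298 CPM in vehicle and 105 to 173 CPM in lactate mice) and mt-Atp8 (340 to 605, 377 to 639 and 402 to 489 CPM) were not called in any of the 3 comparisons (edgeR). The 3 genes mt-Nd3, mt-Nd4l and mt-Atp8 are shorter than the 500 bp minimum read length that the authors applied, so their counts can come only from longer reads.

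**Figure D3:**
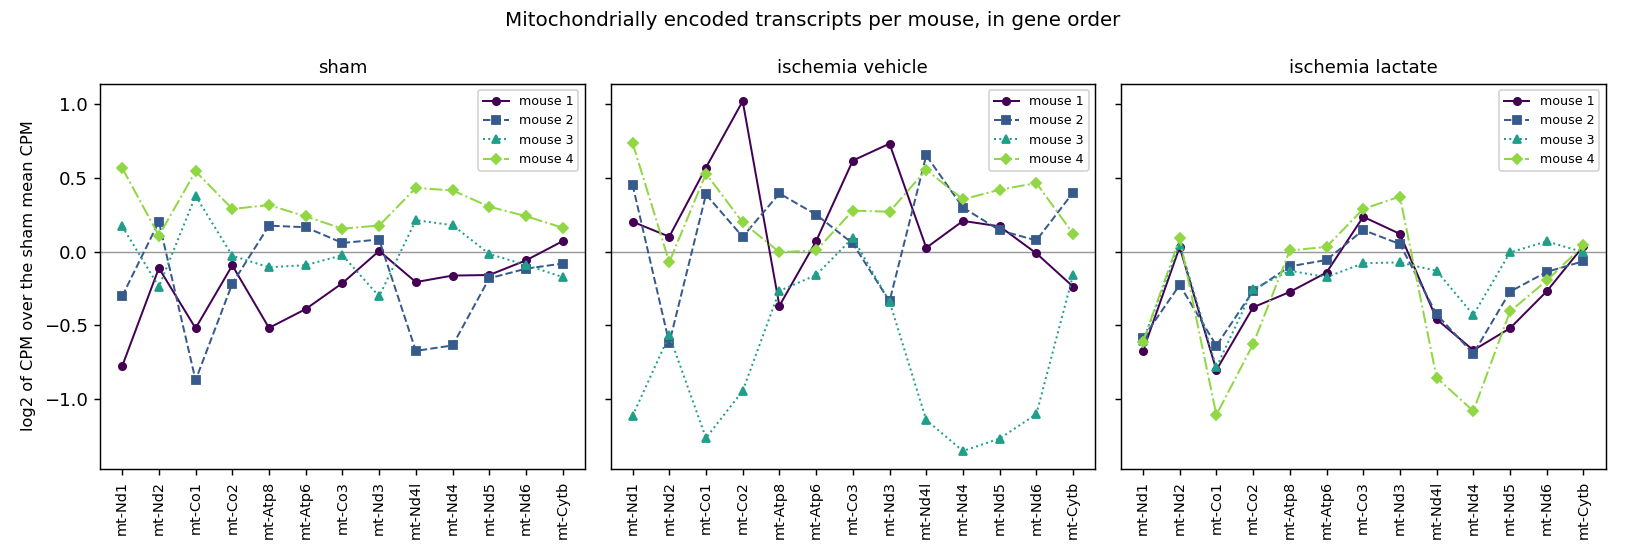
Log2 of the CPM of each mitochondrially encoded transcript over its sham mean, in the order of the genes on the mitochondrial genome, 1 line per mouse and 1 panel per group. In lactate mice all lines lie below 0 at mt-Nd1, mt-Co1, mt-Co2, mt-Nd4l and mt-Nd4, though only slightly at mt-Nd4l in mouse 3. At mt-Nd2 and mt-Cytb they lie on both sides of 0. The dip is not limited to lactate mice, since sham mice 1 and 2 also lie below the sham mean at each of the genes that dip. Vehicle mouse 3 is the lowest of all mice at the genes that dip and also at mt-Nd5 and mt-Nd6.

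mt-Nd1, mt-Co1, mt-Co2, mt-Nd4l and mt-Nd4, picked here after their values were seen, summed to 0.845%, 0.686%, 1.20% and 1.42% of counts in sham mice. In vehicle mice the sum was 1.39%, 1.30%, 0.438% and 1.40%, and in lactate mice 0.657%, 0.683%, 0.732% and 0.531%. The other 8 mitochondrial members summed to 0.544 to 0.684% in sham, 0.471 to 0.683% in vehicle and 0.558 to 0.601% in lactate mice. Since the 5 were picked for their spread, the contrast between the sums is a description. The others were not uniform, and in vehicle mice the coefficient of variation was 40.3% for mt-Nd5, 38.9% for mt-Nd6 and 37.3% for mt-Nd3.

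Lactate against vehicle mice compares the treatments under the same ischemia. No member was called (edgeR adjusted P under 0.05), and only 1 of 17419 genes was (0.00574%). At an unadjusted P under 0.05, 3 nuclear members were higher and 3 mitochondrial members lower, against 4.91% and 3.93% of all genes, and DESeq2, the edgeR exact test and limma voom called 0 members, where over all genes they called 53, 43 and 1 higher and 9, 5 and 1 lower. The 3 mitochondrial members were mt-Co1 (log2 -1.07 ± 0.31, edgeR adjusted P = 0.481), mt-Nd1 (-0.86 ± 0.29, adjusted P = 0.496) and mt-Nd4 (-0.74 ± 0.29, adjusted P = 0.526). They were downregulated by the looser limits, as were 2.47% of all genes, and 0 members were upregulated, against 3.76%.

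Vehicle mouse 3 decided these results. Its values of 1128 CPM for mt-Co1, 495 CPM for mt-Nd1 and 2010 CPM for mt-Nd4 lay below all lactate mice, while the other 3 vehicle mice lay above all lactate mice in each gene. Without that mouse the log2 differences were -1.35 for mt-Co1 (edgeR adjusted P = 0.00365), -1.13 for mt-Nd1 (adjusted P = 0.0173) and -1.01 for mt-Nd4 (adjusted P = 0.0361), and the median over mitochondrial members moved from -0.16 to -0.34. Since the mouse was singled out by these same values, the P values without it are a description and no test of the treatment. Over all genes that fit called 1 higher and 4 lower of 17111. No label sets this mouse apart, so it stays in the comparison. Its library of 8032898 counts was within the range of the others, and its neutrophil markers were the highest of the 12 mice (71.6 CPM in sum, against 8.66 to 51.8 CPM in the other vehicle mice and 0.892 to 2.77 CPM in sham mice). Their part in the mitochondrial values was not tested.

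No nuclear member was called between lactate and vehicle mice. The median log2 difference was -0.02 over 94 members, of which 60 had a negative estimate (63.8%, against 54.4% of all genes), and 83 of them (88.3%) had an estimate within 0.2 of 0, against 48.4% of all genes. The median SE was 0.115 for these members and 0.262 over all genes, so the shares within 0.2 stand at unlike precision. The lactate mice lay above all vehicle mice in 2 nuclear members and below them in 0, against 2.99% and 1.83% of all genes. The 2 were Atp5k and Sdhaf2, an assembly factor of complex II at 33.4 to 39.0 CPM in vehicle and 40.0 to 51.1 CPM in lactate mice (log2 0.26 ± 0.14, edgeR adjusted P = 0.625). Ndufaf2, whose groups overlapped, was 1.26-fold higher (log2 0.33 ± 0.13, edgeR adjusted P = 0.526). Atp5k, the e subunit of ATP synthase, was at 262, 228, 313 and 325 CPM in vehicle mice and at 373, 337, 359 and 349 CPM in lactate mice without overlap. Sham mice were at 263, 446, 273.5 and 357 CPM, and vehicle mice 1 and 2 lay below all of them. Cox7a1, the heart and muscle isoform of a complex IV subunit, was at 6.75 to 11.6 CPM in vehicle and 11.2 to 16.6 CPM in lactate mice (log2 0.52 ± 0.24, edgeR adjusted P = 0.560). The smallest P values among negative estimates were those of Sdhaf1, an assembly factor of complex II at 1.17 to 10.5 CPM in vehicle and 1.56 to 2.78 CPM in lactate mice (log2 -1.07 ± 0.55, edgeR adjusted P = 0.593), of Ndufaf6 (-0.71 ± 0.38, adjusted P = 0.615) and of Ndufa9, an accessory subunit of complex I at 113 to 130.3 CPM and 105 to 114 CPM (-0.18 ± 0.11, adjusted P = 0.656). In all 3 the groups overlapped.

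**Figure D4:**
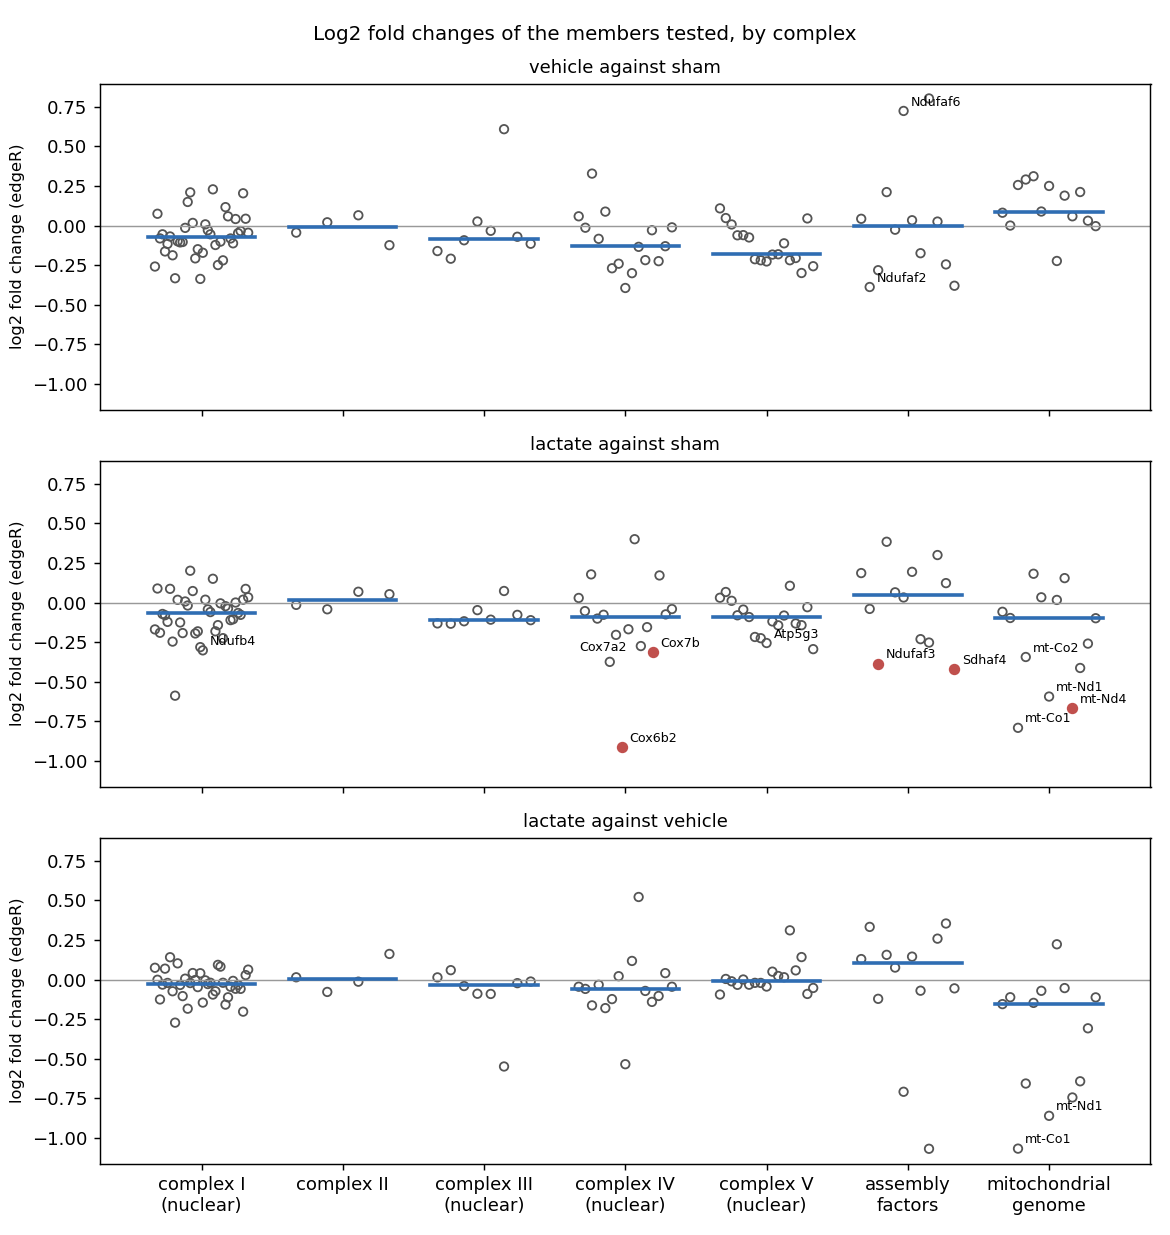
Log2 fold change from edgeR of every member tested in each of the 3 comparisons, grouped by complex, with nuclear assembly factors and the mitochondrial genome apart (filled red, adjusted P under 0.05; blue lines, median of the group; names, members with an unadjusted P under 0.015). The medians of the nuclear complexes stay between -0.18 and 0.02, and the filled points, all below 0, are in lactate against sham.

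By complex, the medians of nuclear subunits in vehicle against sham mice were -0.07 (complex I, 38 tested), -0.01 (complex II, 4), -0.08 (complex III, 8), -0.13 (complex IV, 15) and -0.18 (complex V, 17). In lactate against sham mice they were -0.07, 0.02, -0.11, -0.09 and -0.09 (16 tested in complex IV). Negative estimates numbered 27, 2, 6, 12 and 13 of these subunits in vehicle mice. The 12 assembly factors had medians of 0.00 and 0.05. Among the complexes, complex II, which is also an enzyme of the citrate cycle, lay nearest to 0 in both.

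None of the 4 complex II subunits was called in any comparison (edgeR). Sdha, the flavoprotein, was at 102 to 124 CPM in sham, 90.5 to 123 CPM in vehicle and 104 to 121 CPM in lactate mice. Sdhb, the iron-sulfur subunit, was at 168 to 186, 145 to 190 and 160 to 175 CPM, and the membrane anchors Sdhc and Sdhd were at 107 to 186 and 163 to 196 CPM in sham, 145 to 176 and 119 to 195 CPM in vehicle, and 149 to 187 and 159 to 212 CPM in lactate mice. Their log2 differences from sham lay between -0.12 and 0.07, with SEs of 0.09 to 0.16, and every pair of groups overlapped.

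The 3 genes for the c subunit, which forms the rotor ring of ATP synthase and is the same mature protein from each gene, had a common sign. Atp5g1 was at 948 to 1113 CPM in sham, 804 to 898 CPM in vehicle and 831 to 888 CPM in lactate mice. Atp5g2 was at 178 to 192, 135 to 173 and 144 to 162 CPM, and Atp5g3 at 847 to 980, 661 to 905 and 716 to 805 CPM. In Atp5g1 and Atp5g2 every ischemic mouse lay below every sham mouse, and in Atp5g3 vehicle mice 2 and 4 reached the sham range. The log2 differences of lactate mice were -0.22 ± 0.08, -0.22 ± 0.09 and -0.26 ± 0.09 (edgeR adjusted P = 0.115, 0.116 and 0.0746), and those of vehicle mice -0.21, -0.22 and -0.23 (adjusted P = 0.400 to 0.483).

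Complex IV has tissue isoforms, of which brain mainly uses the ubiquitous ones. Cox4i1 was at 1893 to 2003 CPM in sham, 1760 to 2270 CPM in vehicle and 1856 to 2109 CPM in lactate mice, a log2 difference of 0.03 ± 0.07 for lactate against sham. Cox4i2, the form that low oxygen raises in some cells, was at 1.97 to 4.48 CPM in sham, 0.880 to 3.36 CPM in vehicle and 1.71 to 4.06 CPM in lactate mice. Ndufa4l2, a further gene known to rise in low oxygen, was at 1.63 to 2.90 CPM in sham, 1.12 to 2.64 CPM in vehicle and 0.958 to 2.09 CPM in lactate mice, while Ndufa4, counted by its prefix with complex I but known to be found with complex IV, was at 1480 to 1747, 1194 to 1579 and 1142 to 1406 CPM. None of these passed the test in the 3 comparisons (edgeR), with Ndufa4l2 at log2 -0.59 ± 0.35 in lactate against sham.

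Among the other pairs, Cox6a1 was at 524 to 610 CPM in sham, 455 to 651 CPM in vehicle and 481 to 530 CPM in lactate mice, and its muscle form Cox6a2 at 13.7 to 21.1, 9.71 to 15.7 and 10.7 to 14.7 CPM. Cox6b1 was at 588 to 693 CPM in sham, and at 498 to 557 and 462 to 574 CPM in the ischemic groups, below every sham mouse (log2 -0.24 ± 0.11 and -0.20 ± 0.10, edgeR adjusted P = 0.355 and 0.203). Cox7a2 showed the same order, at 620 to 668, 484 to 597 and 464 to 563 CPM (log2 -0.22 ± 0.11 and -0.27 ± 0.09, edgeR adjusted P = 0.401 and 0.0630). Cox7a2l, which takes part in supercomplexes, was at 240 to 262, 214 to 265 and 197 to 242 CPM, and Cox8a at 1568 to 1706, 1470 to 1701 and 1439 to 1677 CPM. The muscle form Cox8b was below the filter of 1 CPM in 4 mice, as were Cox8c and the second Ensembl entry for Atp5o, and Cox7b2 passed it only in lactate against sham. Cox8c had 0 counts in all 12 mice, which allows up to 0.281 to 0.440 CPM per library (3 counts; counting error only).

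In 3 nuclear members sham mouse 1 was the lowest sham mouse by a wide margin. Cox5a, which binds the matrix side of complex IV, was at 52.5, 289, 274 and 281 CPM in sham mice, at 236, 318, 292 and 262 CPM in vehicle mice and at 143, 286, 302 and 272 CPM in lactate mice. Uqcrfs1, the Rieske iron-sulfur protein of complex III, was at 21.0, 47.3, 104.8 and 93.4 CPM, at 68.8, 117, 132 and 79.8 CPM and at 21.4, 57.6, 101 and 95.5 CPM. Ndufab1, the mitochondrial acyl carrier protein, was at 144, 372, 361 and 344 CPM in sham mice, at 287, 364, 376 and 358 CPM in vehicle mice and at 317, 351, 371 and 344 CPM in lactate mice. In these 3 genes, picked after their values were seen, mouse 1 was the lowest of its group in every group. Without both of these mice, a choice made after the values were seen, lactate against sham gave 0 nuclear calls, with log2 differences of -0.45 for Ndufaf3, -0.50 for Sdhaf4, -0.36 for Cox7b and -0.73 for Cox6b2 (edgeR adjusted P = 0.0569, 0.0613, 0.075 and 0.17). In that fit mt-Nd1 was called (log2 -0.78, edgeR adjusted P = 0.0255) and mt-Nd4 was not (-0.75, adjusted P = 0.0752), and the median over mitochondrial members was -0.21. Over all genes that fit called 227 lower and 847 higher, against 611 and 1512 in the main fit.

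Transcript length divided the nuclear members as well, a split made after the values were seen. With the longest coding transcript of each gene in GENCODE M21, 55 nuclear members were shorter than 1000 nt and 43 were not, and 8 were shorter than 500 nt. Whether the longest transcript was the one expressed was not examined. It was 4715 nt for Atp5g1, against 753 and 723 nt for Atp5g2 and Atp5g3. The short members had a median log2 difference of -0.12 in vehicle and -0.12 in lactate mice against sham, and the long members one of 0.01 and -0.02. Among the other coding genes tested, the medians were -0.04 for 611 short and -0.01 for 12398 long genes in vehicle against sham mice, and -0.05 for 616 short and -0.06 for 12389 long genes in lactate against sham mice. The sum of short over long members was 2.22, 2.39, 2.14 and 2.22 in sham mice, 2.06, 2.15, 2.07 and 2.07 in vehicle mice and 2.13, 2.10, 2.18 and 2.19 in lactate mice. The authors kept reads of at least 500 bp, and the part of this limit in the values was not tested.

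Nuclear respiratory factor 1, encoded by Nrf1, binds a GC-rich palindrome and is known for controlling many genes of the chain, and ETS factors such as the one encoded by Gabpa bind a GGAA core in others. Of the 98 nuclear members, 80 matched a RefSeq promoter (GRCm38.p6, 250 bases before to 50 after each gene start). The palindrome made of the half-site GCGCA followed directly by its reverse complement TGCGC, which reads the same on both strands, was found in 7 of them (8.75%), against 1.07% of 27025 genes with a promoter in the same table. The ETS core CCGGAAGT, on either strand and with no overlap counted against the palindrome, was found in 5 (6.25%), against 4.31% of all. A match describes these letters in this window and does not show binding.

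Most of the promoters lacked the palindrome. The 7 that held it are shown as the match to the Nrf1 motif, each with 10 flanking bases on either side, 5′ to 3′ on the gene's strand, the palindrome in capitals.
Atp5g2 (chr15:102671070-102671099, minus strand): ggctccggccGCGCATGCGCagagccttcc
Atp5k (chr5:108434430-108434459, minus strand): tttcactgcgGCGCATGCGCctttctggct
Cox6a1 (chr5:115349101-115349130, minus strand): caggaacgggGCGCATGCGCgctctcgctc
Ndufa11 (chr17:56717692-56717721, plus strand): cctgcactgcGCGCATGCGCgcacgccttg
Ndufaf4 (chr4:24897960-24897989, plus strand): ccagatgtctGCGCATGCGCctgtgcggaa
Ndufaf5 (chr2:140170652-140170681, plus strand): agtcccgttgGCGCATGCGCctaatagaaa
Uqcrc1 (chr9:108936668-108936697, plus strand): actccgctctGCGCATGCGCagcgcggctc

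The motif began 162, 113, 60, 50 and 42 bases before the gene start in Cox6a1, Ndufaf4, Ndufa11, Atp5k and Atp5g2, and at bases 17 and 31 after it in Ndufaf5 and Uqcrc1. Nrf1 itself was called in lactate mice. It was at 5.54, 7.69, 4.21 and 5.55 CPM in sham mice, 7.40, 13.5, 15.1 and 10.1 CPM in vehicle mice and 9.33, 15.6, 11.5 and 12.1 CPM in lactate mice. The log2 difference from sham was 1.09 ± 0.23 with lactate (edgeR adjusted P = 0.00824) and 1.02 ± 0.27 with vehicle (adjusted P = 0.104). The 7 members with the palindrome had log2 differences of lactate from sham mice of -0.22 (Atp5g2), 0.11 (Atp5k), -0.08 (Cox6a1), -0.19 (Ndufa11), 0.38 (Ndufaf4), 0.06 (Ndufaf5) and -0.05 (Uqcrc1), of both signs and none called. Ndufaf4, an assembly factor of complex I, was at 22.1 to 34.8 CPM in sham and 33.1 to 41.1 CPM in lactate mice (edgeR adjusted P = 0.114). None of the promoters of Cox7b, Cox6b2, Ndufaf3 and Sdhaf4, the nuclear members called, held either motif.

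Other genes of the pathway showed few calls. The genes that transcribe the mitochondrial genome and process its RNA gave 0 calls among 19 tested in each comparison (edgeR), where 1.47%, 12.3% and 0.00574% of all genes were called in vehicle against sham, lactate against sham and lactate against vehicle mice, with median log2 differences of -0.12 in vehicle and 0.04 in lactate mice against sham. Tfam, which packages and helps to transcribe this genome, was at 13.3 to 16.9 CPM in sham, 10.5 to 16.0 CPM in vehicle and 14.5 to 16.6 CPM in lactate mice. Polrmt, the mitochondrial RNA polymerase, was at 4.21 to 13.5, 6.18 to 8.42 and 4.75 to 9.51 CPM, and Lrpprc, which stabilises mitochondrial mRNAs, at 18.1 to 25.6, 14.2 to 22.9 and 15.2 to 20.9 CPM. In these 3 genes the groups overlapped in every pair. In others of the list they did not, and Ssbp1, which binds single-stranded mitochondrial DNA, was at 82.3 to 90.4 CPM in sham and 46.5 to 76.4 CPM in vehicle mice (edgeR adjusted P = 0.377). Among 8 nuclear regulators of the chain only Nrf1 was called, higher in lactate against sham mice as were 8.76% of all genes, and the coactivator Ppargc1a was at 4.44 to 5.67 CPM in sham, 5.05 to 9.27 CPM in vehicle and 4.60 to 7.19 CPM in lactate mice.

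Of 21 complex IV assembly genes, 1 rose and 2 fell with lactate against sham, where 8.76% of all genes rose and 3.54% fell, and 0 were called in vehicle against sham mice. Higd1a, a protein induced by low oxygen that binds complex IV, rose from 202, 176, 176 and 189 CPM in sham mice to 275, 281, 227 and 243 CPM in lactate mice (log2 0.50 ± 0.10, edgeR adjusted P = 0.00624), with vehicle mice at 200 to 238 CPM. Its paralogue Higd2a fell from 126 to 144 CPM in sham to 92.8 to 109 CPM in lactate mice (log2 -0.35 ± 0.10, edgeR adjusted P = 0.0285). Coa6, which helps to deliver copper to complex IV, fell from 32.1 to 40.1 CPM to 18.2 to 28.2 CPM (log2 -0.52 ± 0.16, edgeR adjusted P = 0.0469). The 12 citrate cycle genes, the 10 assembly genes of complexes III and V, the 6 other complex I assembly genes and the 2 electron carrier genes tested (Cycs and Cyc1) held 0 calls in every comparison. Cycs, cytochrome c, was at 268 to 280 CPM in sham and 259 to 284 CPM in lactate mice. Atpif1, which blocks ATP hydrolysis by complex V, was at 421 to 503, 370 to 424 and 362 to 416 CPM.

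The mitochondrial ribosome, which translates the 13 mitochondrial mRNAs, held 78 genes tested in each comparison. In lactate against sham mice 2 rose, where 8.76% of all genes did, and 0 fell. They were Mrps6 (37.4 ± 1.93 to 79.7 ± 3.65 CPM, SD, n = 4, log2 1.12 ± 0.11, edgeR adjusted P = 2.752e-05) and Mrps34 (log2 0.63 ± 0.12, edgeR adjusted P = 0.00434). In vehicle against sham mice 1 fell, where 0.182% of all genes did, and 0 rose. Mrpl36 went from 82.2 ± 8.41 to 48.0 ± 7.91 CPM (log2 -0.74 ± 0.16, edgeR adjusted P = 0.0367). The median over the list was -0.08 in vehicle and -0.04 in lactate mice.

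Summed markers of some cell types lay apart between groups, and those of others overlapped. The 8 neuronal markers, all in the table, summed to 4681 to 4978 CPM in sham, 3952 to 5722 CPM in vehicle and 3909 to 4613 CPM in lactate mice, and those of oligodendrocytes to 7064 to 11300, 5573 to 10460 and 8859 to 9905 CPM. The 6 astrocyte markers summed to 592 to 889 CPM in sham, 794 to 871 CPM in vehicle and 960 to 1014 CPM in lactate mice, and the 6 microglial markers to 232 to 270, 169 to 230 and 279 to 303 CPM. In sum, lactate mice lay above sham mice in both, and below them in neurons, but the medians over single markers were 0.02 (astrocytes), 0.18 (microglia) and -0.04 (neurons) on the log2 scale. In lactate against sham mice edgeR called 0 of 8 neuronal markers, 1 of 6 astrocyte markers higher, 1 of 6 microglial and 1 of 6 endothelial markers higher and 1 of each lower, 2 of 6 oligodendrocyte markers lower, 4 of 5 red blood cell markers lower and the 1 choroid plexus marker tested higher, where 8.76% of all genes were higher and 3.54% lower. In vehicle against sham mice it called 1 astrocyte marker higher and 2 microglial markers lower, where 1.29% and 0.182% of all genes were. Neutrophil markers (6, of which 2 had at most 3 counts in every mouse) summed to 0.892 to 2.77 CPM in sham mice, 8.66 to 71.6 CPM in vehicle and 16.4 to 39.8 CPM in lactate mice, with 2 of 2 tested genes called higher in vehicle and 3 of 3 in lactate mice against sham. Endothelial markers were at 176 to 193, 157 to 212 and 195 to 233 CPM and red blood cell markers at 560 to 633, 333 to 500 and 375 to 499 CPM. Choroid plexus markers summed to 1.22 to 4.35 CPM in sham mice and 4.40 to 18.6 CPM in ischemic mice, except vehicle mouse 2 at 1844 CPM, whose members of the chain summed to 4.12% (nuclear) and 1.98% (mitochondrial). The part of these markers in the members' values was not tested.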

How the data were processed

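Amplified full-length cDNA was read on a nanopore instrument. The authors kept reads of at least 500 bp, removed ribosomal RNA, mapped with minimap2 and polished isoforms with pinfish. They deposited raw counts per gene. The CPM values deposited beside them equal each count over its library's total. How reads were assigned to genes, and whether strand was used, is not given in the sources used here. The 6 annotated chromosome 1 copies of mitochondrial genes were not analysed here. The submitters' processing notes name GRCm38 and DESeq 1.10.1. Fold changes and P values made by the authors were not used. Limits from counts of 0 cover counting error only, since reads carry no molecular identifiers.

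For the counts, 4 lines without a gene were dropped and 0 per-sample columns were left out. Each fit held the 8 mice of its comparison and genes with 1 CPM or more in 4 of them. The test was the quasi-likelihood F of edgeR 4.0.16 (R 4.3.3) after TMM scaling, with Benjamini-Hochberg adjustment over every gene in the fit and SEs derived from F. DESeq2 1.42.0, limma 3.58.1, other scalings and filters, a replicate block and leaving out each mouse served as alternatives. Summed shares and medians carry no test. The fit was tested on simulated data. Positions come from GENCODE M21 and promoters from RefSeq. Correlations of same-numbered libraries ran from -0.212 to 0.204 and were not above 0.1 in every pair, so numbers were not taken as pairs. Named were all mitochondrial members, nuclear members called, the 3 smallest P values per direction and comparison, and fixed isoform sets. Cox5a, Ndufab1, Mrps34 and other genes outside this rule were chosen after their values were seen. Members and lists were chosen with earlier results of these data known. Python 3.11.15 served for the rest.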

Additional observations from a re-analysis of the deposited data

Results flagged for a closer look

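In groups of 4 mice, a value was marked where 1 mouse lay far from the other 3 by Dixon's test, which chance does in about 1 in 20 groups. Over all members 30 of 324 groups (9.26%) were marked, among them 6 with ischemia vehicle mouse 1 and 5 each with sham mouse 2 and ischemia lactate mouse 2. Vehicle mouse 3 was marked for the summed share of mitochondrial members (0.909% against 1.98 to 2.06%), for mt-Co1 (1128 CPM against 3541 to 4018 CPM) and for mt-Nd4 (2010 CPM against 5925 to 6555 CPM). Sham mouse 1 was marked for Cox5a (52.5 CPM against 274 to 289 CPM), Ndufab1 (144 CPM against 344 to 372 CPM) and Cox4i2 (4.48 CPM against 1.97 to 2.31 CPM). 

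The values given here are those of named members and sums, 17 of 156 such groups. The rest of them were Sdha in sham mouse 2 (101.5 CPM against 121 to 124 CPM), Ndufb8 in sham mouse 3 (269.7 CPM against 251 to 253 CPM), and Ndufaf3 (105.7 CPM against 90.5 to 91.0 CPM) and mt-Nd6 (531 CPM against 415 to 432 CPM) in sham mouse 4. In vehicle mouse 1 they were Cox6c (1619 CPM against 2019 to 2072 CPM) and Sdhb (145.3 CPM against 183 to 190 CPM), and in vehicle mouse 4 Cox4i2 (0.880 CPM against 2.98 to 3.36 CPM). In lactate mouse 1 it was Ndufv1 (450.0 CPM against 321 to 339 CPM). In lactate mouse 2 they were Ndufaf4 (41.1 CPM against 33.1 to 34.3 CPM), Sdhaf4 (43.7 CPM against 55.8 to 58.2 CPM) and Cox6a1 (481.3 CPM against 525 to 530 CPM).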

How the results depend on the processing

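Vehicle against sham gave 0 member calls under every alternative except the looser limits (unadjusted P under 0.05 and a fold of at least 1.5), which gave 1 nuclear member higher. In lactate against sham, the 4 nuclear members that fell became 7 with library totals alone, 1 with only genes that have an Ensembl identifier, 2 with a filter of 5 CPM, 2 with the replicate block (Cox7b at adjusted P = 0.0641 and Sdhaf4 at 0.0502 were lost, edgeR), 1 with the looser limits, 0 in the fit of all 12 mice, and 0 without sham and lactate mouse 1 together (added after seeing the data). The 1 mitochondrial member that fell became 2 with upper-quartile factors, 3 with library totals, 0 with Ensembl genes only, 4 with no filter, 0 with all 12 mice, 2 with the edgeR exact test, 3 with limma voom and 3 with the looser limits. Genes of all kinds that fell numbered 611 in the main fit, 722 with library totals alone and 751 with upper-quartile factors. They numbered 331 with Ensembl genes only, 398 with the filter of 5 CPM and 813 with no filter. The number was 324 with all 12 mice, 227 without sham and lactate mouse 1, 820 with the exact test and 687 with limma voom. Leaving out each mouse in turn gave 0 to 3 nuclear and 0 to 3 mitochondrial members lower, and 0 to 1 nuclear member higher, the last being Ndufaf4 without sham mouse 4. Over all genes 290 to 530 were lower and 970 to 1419 higher in these fits. The median over mitochondrial members ranged from -0.24 (without sham mouse 1) to -0.00474 (without sham mouse 4), and was -0.21 without sham and lactate mouse 1. In lactate against vehicle, mitochondrial members lower numbered 3 with the looser limits and 0 to 3 when leaving out each mouse, the 3 being found without vehicle mouse 3, with medians from -0.34 to -0.15. Without that mouse 1 gene was higher and 4 were lower over all genes. The log2 ratio of mitochondrial to nuclear sums was -0.13 (lactate against sham) and -0.25 (lactate against vehicle) as a mean of log2(CPM + 1) over members, and -0.41 to -0.15 and -0.74 to -0.30 when leaving out each mouse. Against the total of Ensembl genes, nuclear members summed to 4.70%, 4.32% and 4.41% in sham, vehicle and lactate mice, and mitochondrial members to 1.38% in lactate mice. Without mt-Nd4 the mitochondrial sum was 1.12% in sham and 0.913% in lactate mice. Over all genes, vehicle against sham gave 219 higher and 31 lower in edgeR and 399 and 77 in DESeq2, lactate against vehicle 0 and 1, and 53 and 9, and lactate against sham 1512 and 611, but 672 and 331 with Ensembl genes only. The cause of these shifts was not tested. With the replicate block, vehicle against sham gave 179 and 19 over all genes and lactate against sham 1626 and 655, and no other count of member calls changed. The shared numbers were not taken as pairs (correlations from -0.212 to 0.204), although the first mice correlated at 0.204 (sham with vehicle) and 0.179 (sham with lactate), each the best match. The same number was also the best match for sham mouse 4 with vehicle (0.173) and sham mice 2 and 3 with lactate (0.064 and 0.0734). Between vehicle and lactate mice the best matches all had other numbers. With 4 mice per group and a median SE of 0.25 for mitochondrial members in vehicle against sham mice, small differences in these transcripts were not detectable. Every value is relative to the other transcripts of its library.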
